A study of Mus musculus with 6 samples.

Results

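The WNT and Hedgehog pathway genes were examined in MA-10, a Leydig tumor line of the mouse testis, and in its derivative STARKO1. STARKO1 is 1 clone, grown from a single sorted MA-10 cell after CRISPR/Cas9 targeting of exon 2 of Star, so effects of the targeting cannot be told apart from differences between 1 clone and the population it came from. Both lines were untreated, and each was sequenced as 3 libraries of total RNA made with a stranded kit. The genes were listed by symbol, with earlier results of these data known: WNT ligands, secretion factors, receptors, antagonists, transducers and TCF/LEF factors, and Hedgehog ligands, receptors, co-receptors and GLI factors. The rule found 40 of the 14774 genes in the deposited table, 31 of the WNT pathway and 9 of the Hedgehog pathway. Of these, 36 had enough counts to be tested, while Smo, Porcn, Wnt2b and Wnt10b did not.

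WNT proteins are lipid-modified ligands that bind Frizzled receptors together with the co-receptors LRP5 or LRP6. Without a ligand, a destruction complex built on AXIN and APC marks β-catenin for degradation. With a ligand, β-catenin is spared and acts with TCF/LEF factors on genes that include the pathway's own inhibitors Axin2 and Notum. Hedgehog ligands bind PTCH1 and the co-receptors BOC, CDON and GAS1, which relieves SMO and changes the processing of GLI factors, and Ptch1 and Gli1 are themselves induced by the pathway. In the testis, Desert hedgehog from Sertoli cells acts on PTCH1 in the Leydig lineage.

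Library totals lay between 14114351 and 19530062 counts. The targeted gene Star had 1064, 1261 and 697 counts in MA-10 replicates 1 to 3 and 48, 46 and 36 in STARKO1 replicates 1 to 3 (log2 fold change -5.09, SE 0.331, adjusted p = 0.00121, by the quasi-likelihood test of edgeR). By correlation, MA-10 replicate 1 stood apart from the other MA-10 libraries. Across 8538 well expressed genes, Pearson's r of log2 levels was 0.949 to 0.955 between this library and STARKO1, and 0.802 to 0.874 between it and the other MA-10 libraries (genes are not independent replicates). The 7SL RNA took 1.81%, 14.4% and 6.63% of the reads counted in MA-10 replicates 1 to 3, against 1.82% to 2.37% in STARKO1. By this share, MA-10 replicates 2 and 3 were the libraries that stood apart. Levels also followed exon length unequally, by 0.0569, -0.116 and -0.0316 (log2 per doubling of length) in MA-10 replicates 1 to 3 and by 0.0257 to 0.0334 in STARKO1. The part of these differences in the results was not tested, and results for the WNT and Hedgehog genes are given without MA-10 replicate 1 where leaving it out changed the call. That fit keeps the MA-10 libraries whose 7SL share lay farther from STARKO1, and it called 65.7% of all tested genes. Its small p-values are therefore not stronger evidence for a single gene. Of 11 markers of Leydig cells, 11 were listed, with a summed level of 2189 to 2821 CPM in MA-10 and 1768 to 1848 CPM in STARKO1. Besides Star, Hsd3b1 was called among them (log2 fold change -2.52, SE 0.219, adjusted p = 0.00268). Of 12 markers of Sertoli cells, 5 were listed, with a summed level of 763 to 919.7 CPM in MA-10 and 907 to 957 CPM in STARKO1. Of 11 markers of germ cells, 2 were listed, with a summed level of 107 to 212 CPM in MA-10 and 233 to 237 CPM in STARKO1. Of 8 markers of macrophages, 2 were listed, with a summed level of 4.86 to 9.85 CPM in MA-10 and 6.37 to 8.56 CPM in STARKO1. Of 7 markers of endothelial cells, 2 were listed, with a summed level of 26.4 to 41.5 CPM in MA-10 and 118 to 124 CPM in STARKO1. Of 6 markers of peritubular myoid cells, 2 were listed, with a summed level of 13.00 to 20.5 CPM in MA-10 and 1.72 to 2.59 CPM in STARKO1. The endothelial cadherin gene Cdh5 (log2 fold change 1.84, SE 0.204, adjusted p = 0.00596) and the muscle filament gene Des (log2 fold change -2.999, SE 0.316, adjusted p = 0.00499) carried these last shifts, whose part in the results was not tested.

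The WNT and Hedgehog genes that changed between the lines were 5 in number. The Hedgehog co-receptor genes Gas1 and Boc and the Dickkopf family gene Dkk3 were higher in STARKO1, and the Frizzled receptor genes Fzd4 and Fzd2 were lower. They made up 13.9% of the 36 tested genes, where 9.04% of all 11939 tested genes were called at an adjusted p under 0.05, 4.3% higher and 4.74% lower. In bulk RNA, fewer cells that express a gene and less RNA per cell cannot be told apart. The median log2 fold change of the 36 genes was 0.44, against -0.050 over all tested genes, and 27 of the 36 estimates were above 0, against 47.1% of all. Scaling by library size alone shifted the median of all genes by 0.43 and gave 0.77 for the 36 genes. In 15 genes (41.7%) the lines did not overlap, near the 42.5% of all tested genes. STARKO1 was above in 9 of them, where 21.5% of all genes were, and below in 6, where 21.0% were. An unadjusted p under 0.05 was reached by 12 of the 36, against 37.6% of all genes.

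Which libraries entered the fit set how many genes passed. Without MA-10 replicate 1, 26 of the 36 were called, where 65.7% of all tested genes were. Of these, 20 were higher and 6 lower in STARKO1, against 34.0% and 31.7% of all genes. Without MA-10 replicate 2, Fzd4 and Gas1 were called, beside 4.19% of all genes, and without MA-10 replicate 3, Gas1, beside 1.49%. Without STARKO1 replicate 1, 2 or 3 the edgeR test called 0 of the 36, beside 0.73%, 1.11% and 0.76% of all genes. In these fits 8, 8 and 7 of the 36 had an unadjusted p under 0.05 by edgeR. No share of all genes is given here for these fits, so the counts show neither an excess nor a lack among the 36. DESeq2 called 10 of the 36 with all libraries, near the 28.4% of all genes that it called, namely the 5 named above and Axin2, Ctnnb1, Dvl2, Fzd3 and Sfrp4.

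**Figure D1:**
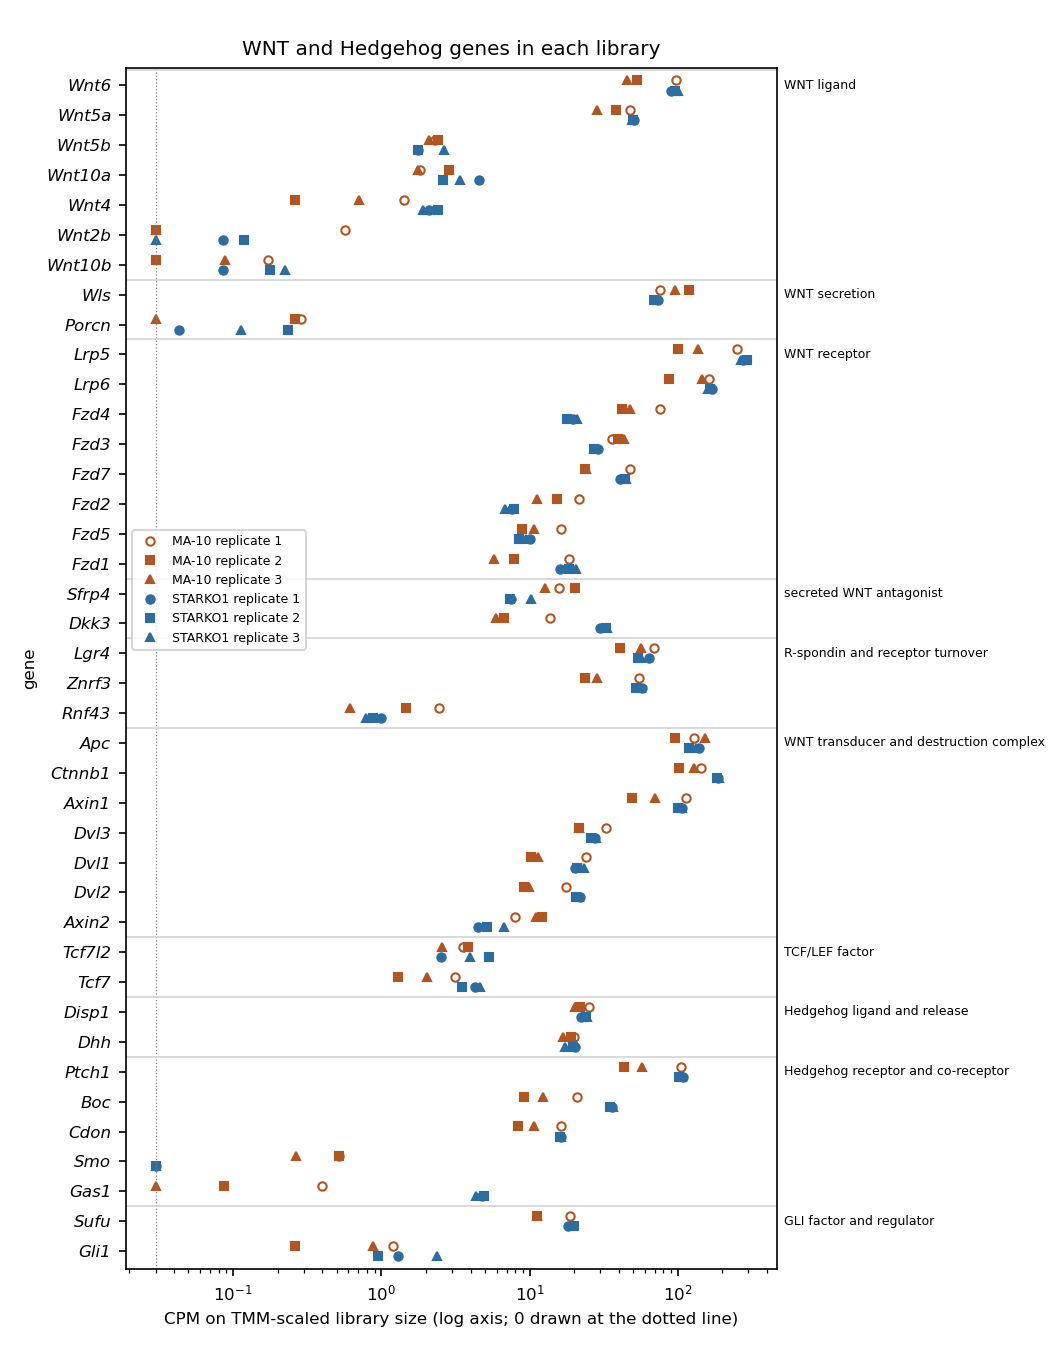
Level of each of the 40 genes in each library in CPM, that is, counts scaled to a common library size (log axis), grouped by role. MA-10 replicate 1 lies within the STARKO1 range for 12 of the 36 tested genes, while Fzd4, Fzd2, Dkk3, Boc and Gas1 separate the lines in every library.

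No WNT ligand gene passed the test, and the leading ligands were the same in both lines. Wnt6, the most abundant per kb of exon, held 80.4% ± 3.58 in MA-10 and 82.6% ± 1.28 in STARKO1 of the summed ligand level per kb (SD, n = 3 each). It had 97.4, 53.2 and 45.3 CPM across MA-10 replicates 1 to 3, against 90.3, 95.5 and 101 CPM across STARKO1 replicates 1 to 3. MA-10 replicate 1 lay within the STARKO1 range and MA-10 replicates 2 and 3 below it (log2 fold change 0.55, SE 0.298, adjusted p = 0.212, and 1.05 with adjusted p = 0.000154 without MA-10 replicate 1). Wnt5a, a ligand mostly of β-catenin-independent signaling, came next with 13.8% ± 2.098 in MA-10 and 12.1% ± 0.723 in STARKO1 of the ligand total (SD, n = 3 each). Its level was 38.2 ± 9.49 CPM in MA-10 and 50.05 ± 0.903 CPM in STARKO1 (SD, n = 3 each), with every STARKO1 library above those of MA-10 but no significant difference (log2 fold change 0.39, SE 0.208, adjusted p = 0.2102, and 0.67 with adjusted p = 0.00283 without MA-10 replicate 1). Wnt4, a regulator of gonad development, had 25, 3 and 8 counts in MA-10 replicates 1 to 3 and 49, 41 and 34 in STARKO1 replicates 1 to 3. All STARKO1 libraries were above those of MA-10 for Wnt4, again short of the threshold (log2 fold change 1.35, SE 0.514, adjusted p = 0.109, and 2.22 with adjusted p = 0.00245 without MA-10 replicate 1). Wnt10a (2.15 ± 0.616 CPM in MA-10 and 3.51 ± 0.9902 CPM in STARKO1 (SD, n = 3 each), adjusted p = 0.157) and Wnt5b (2.28 ± 0.158 CPM in MA-10 and 2.06 ± 0.505 CPM in STARKO1 (SD, n = 3 each), adjusted p = 0.705) were low and overlapped. Wnt2b had 10, 0 and 0 counts in MA-10 replicates 1 to 3 and 2, 2 and 0 in STARKO1 replicates 1 to 3. Wnt10b had 3, 0 and 1 counts in MA-10 replicates 1 to 3 and 2, 3 and 4 in STARKO1 replicates 1 to 3. A difference in these 2 genes was not detectable at this depth, where 3 counts amounted to 0.129 to 0.264 CPM.

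Wls, which encodes the carrier of lipid-modified WNT proteins to the cell surface, had 76.2, 119 and 95.9 CPM across MA-10 replicates 1 to 3, against 73.4, 69.1 and 71.5 CPM across STARKO1 replicates 1 to 3. Every MA-10 library was above those of STARKO1, without significance (log2 fold change -0.45, SE 0.197, adjusted p = 0.148, and -0.501 with adjusted p = 0.00609 without MA-10 replicate 1), and scaling by library size alone turned the estimate to 0.054. Porcn, the acyltransferase gene that serves the lipid attachment, had 5, 3 and 0 counts in MA-10 replicates 1 to 3 and 1, 4 and 2 in STARKO1 replicates 1 to 3.

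Among the 6 Frizzled receptor genes, Fzd4 and Fzd2 were lower in STARKO1, while the estimates of Fzd7 and Fzd1 were above 0 without passing. Fzd4, also the receptor of the non-WNT ligand Norrin, lies on GRCm38 chromosome 7, 89404355 to 89413134, plus strand. It had 76.4, 41.98 and 47.8 CPM across MA-10 replicates 1 to 3, against 19.7, 17.98 and 20.96 CPM across STARKO1 replicates 1 to 3. The lowest MA-10 library was thus above the highest STARKO1 library, and MA-10 replicate 1 lay farthest away. The means were 55.4 ± 18.4 CPM in MA-10 and 19.6 ± 1.497 CPM in STARKO1 (SD, n = 3 each), and Fzd4 fell (log2 fold change -1.503, SE 0.254, adjusted p = 0.0215). It passed in 2 of the 6 fits that left out 1 library, those without MA-10 replicate 1 (log2 fold change -1.11, adjusted p = 0.000149) and without MA-10 replicate 2, had up to 0.138 in the others, and had 0.0518 when replicate numbers entered as a block and 0.147 with library size alone. The 250 bases upstream of the RefSeq start of Fzd4 (GRCm38.p6, chr7:89404116-89404365, plus strand) are shown because this gene had the largest fall of the 36. Capitals mark CG, which occurs 25 times here, with a median of 6 in this stretch over all RefSeq promoters and 15 over those of the WNT and Hedgehog genes.
Fzd4: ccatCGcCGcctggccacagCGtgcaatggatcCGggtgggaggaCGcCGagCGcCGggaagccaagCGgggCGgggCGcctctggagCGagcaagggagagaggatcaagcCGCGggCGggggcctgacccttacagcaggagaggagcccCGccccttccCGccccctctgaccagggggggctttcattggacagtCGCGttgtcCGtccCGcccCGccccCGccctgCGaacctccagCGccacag

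Fzd2 (chromosome 11, 102604396 to 102608058, plus strand) had 21.4, 15.4 and 11.2 CPM across MA-10 replicates 1 to 3, against 7.66, 7.899 and 6.798 CPM across STARKO1 replicates 1 to 3. Each MA-10 library was above every STARKO1 library, and Fzd2 fell (log2 fold change -1.11, SE 0.2600, adjusted p = 0.0474). It passed in 1 of the 6 fits that left out 1 library, that without MA-10 replicate 1 (log2 fold change -0.74, adjusted p = 0.004602), had up to 0.207 in the others, and had 0.08802 with the replicate block. The Fzd2 call was also lost with upper quartile scaling (adjusted p = 0.08300 by edgeR), library size alone (0.262, log2 fold change -0.73), no filter on low counts (0.0633) and at least 10 counts in every library (0.0579). Fzd3, a receptor mostly of planar polarity signaling, also had all STARKO1 libraries lowest, with 39.4 ± 3.63 CPM in MA-10 and 27.95 ± 0.937 CPM in STARKO1 (SD, n = 3 each), but did not pass (log2 fold change -0.49, SE 0.147, adjusted p = 0.0707, and -0.47 with adjusted p = 0.00635 without MA-10 replicate 1), and its estimate was -0.040 with library size alone. Fzd5 overlapped (log2 fold change -0.36, SE 0.251, adjusted p = 0.314, and 0.018 with adjusted p = 0.926 without MA-10 replicate 1). Fzd7 had 47.8, 23.6 and 24.04 CPM across MA-10 replicates 1 to 3, against 40.8, 44.2 and 44.8 CPM across STARKO1 replicates 1 to 3. Here MA-10 replicate 1 was above the STARKO1 libraries and MA-10 replicates 2 and 3 below them (log2 fold change 0.44, SE 0.296, adjusted p = 0.297, and 0.95 with adjusted p = 0.000201 without MA-10 replicate 1). Fzd1 had 18.6, 7.89 and 5.72 CPM across MA-10 replicates 1 to 3, against 16.1, 18.4 and 20.6 CPM across STARKO1 replicates 1 to 3. Its MA-10 replicate 1 lay within the STARKO1 range (log2 fold change 0.76, SE 0.422, adjusted p = 0.221, and 1.52 with adjusted p = 0.0001997 without MA-10 replicate 1).

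The make-up of the Frizzled transcripts, which does not depend on library scaling, separated the lines in every library for Fzd4, Fzd7, Fzd1 and Fzd2. Of the summed Frizzled level per kb, Fzd4 took 30.5%, 28.5% and 32.7% in MA-10 replicates 1 to 3 and 13.6%, 11.97% and 13.4% in the STARKO1 libraries. Fzd7 took 28.2%, 23.8% and 24.4% and 41.7%, 43.7% and 42.5%. Fzd4 was thus the most abundant Frizzled gene per kb in each MA-10 library and Fzd7 in each STARKO1 library. Their ratio per kb was 1.08, 1.200 and 1.34 in the MA-10 libraries and 0.326, 0.274 and 0.315 in those of STARKO1. Fzd1 held 8.899% ± 2.803 in MA-10 and 19.5% ± 1.65 in STARKO1, and Fzd2 16.3% ± 2.66 in MA-10 and 9.102% ± 0.979 in STARKO1 (SD, n = 3 each). These shares were chosen after the values of the single genes had been seen, and no test was made of them.

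**Figure D2:**
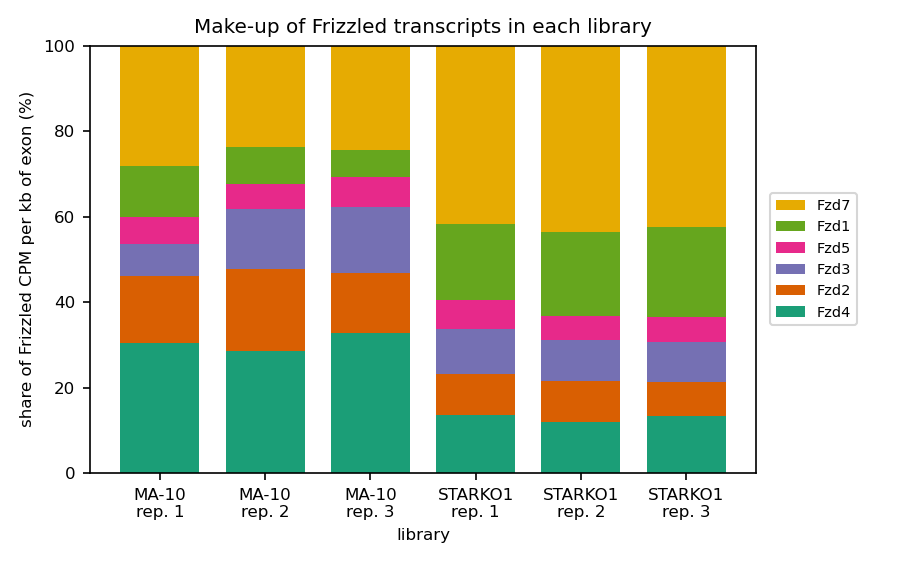
Share of each Frizzled gene in the summed Frizzled level per kb of exon, in percent, for each library. Fzd4 takes between 28.5% and 32.7% in the MA-10 libraries and between 11.97% and 13.6% in the STARKO1 libraries, where Fzd7 has the largest share.

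The LRP co-receptor genes were abundant. Lrp5, the leading WNT receptor gene per kb, had 249, 101 and 136 CPM across MA-10 replicates 1 to 3, against 276, 295 and 268 CPM across STARKO1 replicates 1 to 3. Every STARKO1 library was above those of MA-10, with MA-10 replicate 1 near them, and Lrp5 did not pass (log2 fold change 0.79, SE 0.337, adjusted p = 0.137, and 1.33 with adjusted p = 0.000214 without MA-10 replicate 1). Lrp6 overlapped, with 132 ± 39.5 CPM in MA-10 and 165 ± 4.56 CPM in STARKO1 (SD, n = 3 each) (log2 fold change 0.33, SE 0.2496, adjusted p = 0.355, and 0.59 with adjusted p = 0.0362 without MA-10 replicate 1).

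The 2 genes of secreted antagonists had estimates of opposite sign, and Dkk3 passed the test. Dkk3 (chromosome 7, 112116017 to 112159057, minus strand), a divergent member of the Dickkopf family, had 13.8, 6.77 and 5.900 CPM across MA-10 replicates 1 to 3, against 29.7, 32.6 and 33.1 CPM across STARKO1 replicates 1 to 3. Every STARKO1 library exceeded all of MA-10, of which replicate 1 was highest. Dkk3 rose 3.603-fold in mean level (log2 fold change 1.84, SE 0.333, adjusted p = 0.0258). It passed in 1 of the 6 fits that left out 1 library, that without MA-10 replicate 1 (log2 fold change 2.42, adjusted p = 1.21e-05), had up to 0.128 in the others, and had 0.0518 with the replicate block and 0.0805 with library size alone. Sfrp4, a secreted protein with a Frizzled-like domain that binds WNT ligands, had 15.7, 20.4 and 12.8 CPM across MA-10 replicates 1 to 3, against 7.44, 7.43 and 10.2 CPM across STARKO1 replicates 1 to 3. Its STARKO1 libraries were all below those of MA-10, just short of the threshold (log2 fold change -0.96, SE 0.2398, adjusted p = 0.05301, and -0.899 with adjusted p = 0.00746 without MA-10 replicate 1). The ratio of Dkk3 to Sfrp4 per kb, chosen after the values were seen, was 1.09, 0.413 and 0.575 in the MA-10 libraries and 4.96, 5.46 and 4.05 in those of STARKO1.

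The genes of receptor turnover did not pass. LGR4 is a receptor of R-spondins, and ZNRF3 and RNF43 are the ubiquitin ligases that remove Frizzled proteins and that R-spondins hold back. Lgr4 had 69.01, 40.5 and 56.5 CPM across MA-10 replicates 1 to 3, against 64.1, 54.1 and 56.4 CPM across STARKO1 replicates 1 to 3, and the lines overlapped (log2 fold change 0.071, SE 0.222, adjusted p = 0.829, and 0.35 with adjusted p = 0.104 without MA-10 replicate 1). Znrf3 had 54.6, 23.6 and 28.7 CPM across MA-10 replicates 1 to 3, against 57.8, 51.9 and 56.7 CPM across STARKO1 replicates 1 to 3. MA-10 replicate 1 lay within the STARKO1 range for Znrf3 (log2 fold change 0.64, SE 0.317, adjusted p = 0.182, and 1.17 with adjusted p = 0.000177 without MA-10 replicate 1). Rnf43 was low and overlapped, with 1.52 ± 0.924 CPM in MA-10 and 0.887 ± 0.101 CPM in STARKO1 (SD, n = 3 each) (log2 fold change -0.800, SE 0.4897, adjusted p = 0.259, and -0.14 with adjusted p = 0.794 without MA-10 replicate 1).

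Of the 7 genes of transducers and the destruction complex, edgeR called 0, where 9.04% of all tested genes were called. Axin2, Ctnnb1 and Dvl2 had an unadjusted p under 0.05, as did 37.6% of all tested genes. DESeq2 called these 3, where it called 28.4% of all genes. Ctnnb1, which encodes β-catenin and led this group per kb, had 143, 102 and 129 CPM across MA-10 replicates 1 to 3, against 188, 183 and 189 CPM across STARKO1 replicates 1 to 3. All STARKO1 libraries were above those of MA-10 (log2 fold change 0.58, SE 0.182, adjusted p = 0.0773, and 0.78 with adjusted p = 0.00162 without MA-10 replicate 1). Dvl2, a Dishevelled adaptor, was likewise above in every STARKO1 library, with 12.2 ± 4.69 CPM in MA-10 and 21.3 ± 0.641 CPM in STARKO1 (SD, n = 3 each) (log2 fold change 0.79, SE 0.272, adjusted p = 0.0895, and 1.25 with adjusted p = 8.85e-05 without MA-10 replicate 1). Its exons share 1151 bases with Acadvl on the opposite strand, and those of Ctnnb1 share 759 with Ulk4, of Axin2 209 with Gm11670, of Fzd5 1233 with Gm38058 and of Wnt5a 358 with Gm2670, while the strand setting of the counting is not given in the sources used here. Dvl1 (log2 fold change 0.49, SE 0.334, adjusted p = 0.302, and 1.08 with adjusted p = 0.000269 without MA-10 replicate 1) and Dvl3 (log2 fold change 0.11, SE 0.207, adjusted p = 0.713, and 0.43 with adjusted p = 0.0102 without MA-10 replicate 1), the other Dishevelled genes, overlapped between the lines, and so did Apc (log2 fold change 0.056, SE 0.207, adjusted p = 0.855, and 0.16 with adjusted p = 0.504 without MA-10 replicate 1).

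Axin2, both a scaffold of the destruction complex and a gene that β-catenin induces in many tissues, had 7.96, 12.1 and 11.01 CPM across MA-10 replicates 1 to 3, against 4.52, 5.13 and 6.74 CPM across STARKO1 replicates 1 to 3. All STARKO1 libraries were below those of MA-10, with MA-10 replicate 1 nearest to them (log2 fold change -0.92, SE 0.248, adjusted p = 0.0608, and -1.0003 with adjusted p = 0.00224 without MA-10 replicate 1). Its paralog Axin1 was at 113, 48.9 and 70.01 CPM (MA-10) and 107, 101 and 107 CPM (STARKO1), with MA-10 replicate 1 above the STARKO1 libraries and the other MA-10 libraries below (log2 fold change 0.44, SE 0.301, adjusted p = 0.306, and 0.91 with adjusted p = 0.00196 without MA-10 replicate 1).

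Tcf7 and Tcf7l2 were the TCF/LEF genes tested. The further readout genes Lef1 and Hhip were sought by the rule but had no entry in the deposited table, and no value of Nkd1 is given here. Tcf7, the more abundant per kb, had 3.15, 1.301 and 2.03 CPM across MA-10 replicates 1 to 3, against 4.26, 3.48 and 4.61 CPM across STARKO1 replicates 1 to 3. The STARKO1 libraries were all above, without passing (log2 fold change 0.91, SE 0.347, adjusted p = 0.111, and 1.39 with adjusted p = 0.00311 without MA-10 replicate 1). Tcf7l2 overlapped (log2 fold change 0.25, SE 0.335, adjusted p = 0.594).

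**Figure D3:**
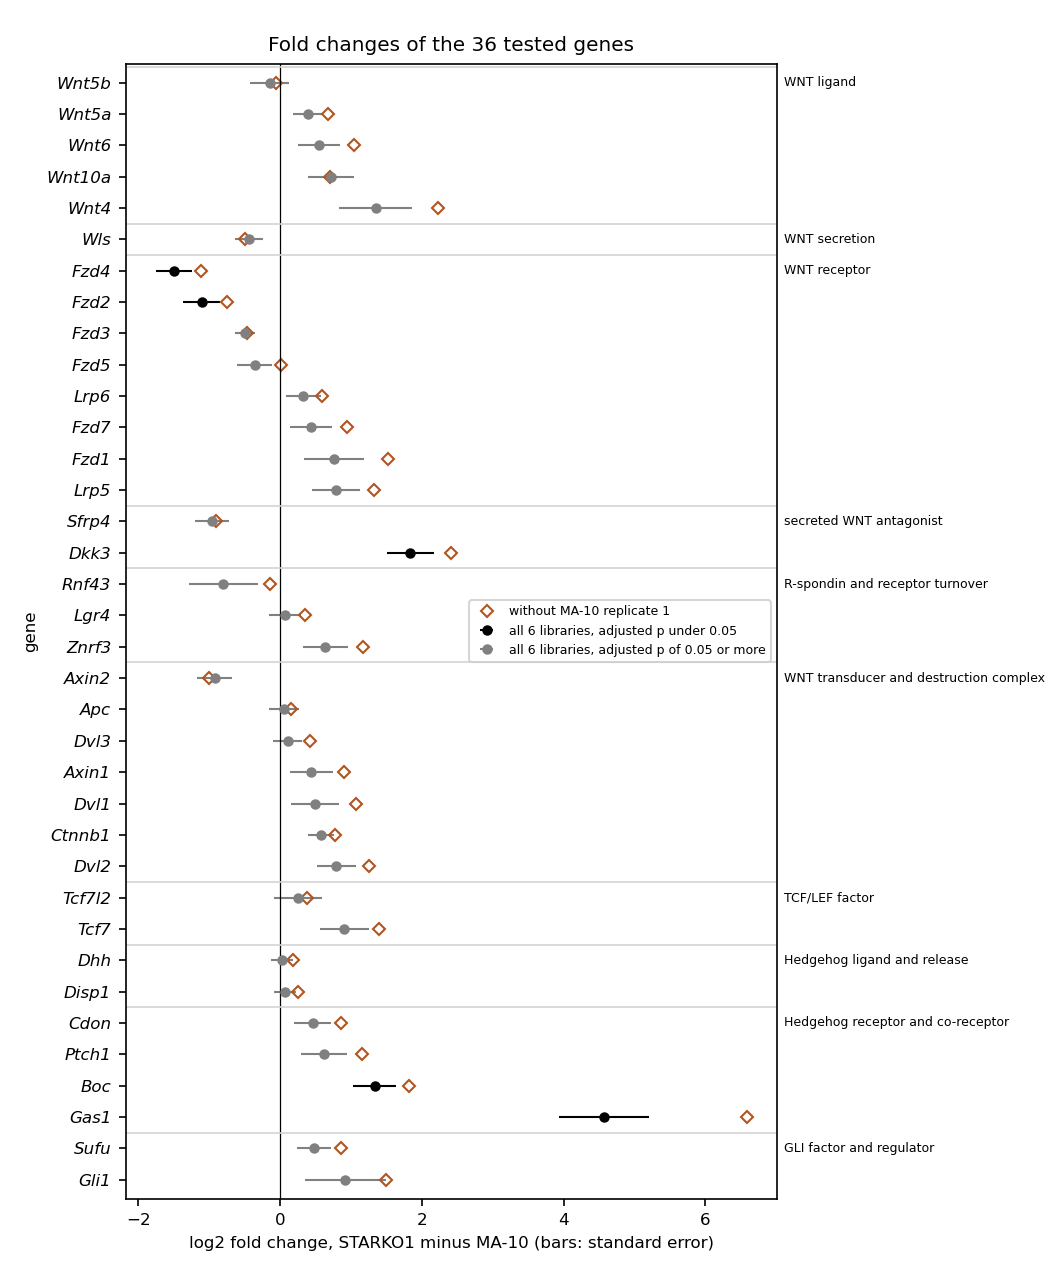
Log2 fold change (STARKO1 minus MA-10) of each of the 36 tested genes by role, with its SE, from all 6 libraries and from the fit without MA-10 replicate 1. Fzd4 and Fzd2 lie below 0 and Dkk3, Boc and Gas1 above it, and these 5 are marked as called with all libraries.

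Further genes of the WNT pathway were counted in the same fit. Of 70 listed, 43 were tested and 5 called, 2 higher and 3 lower in STARKO1, or 11.6% against 9.04% of all genes. Notum, a secreted enzyme that strips the lipid from WNT proteins and a target of β-catenin, had 7.79, 2.52 and 3.17 CPM across MA-10 replicates 1 to 3, against 0.4302, 0.236 and 0.618 CPM across STARKO1 replicates 1 to 3. All STARKO1 libraries were below those of MA-10 for Notum, which fell (log2 fold change -3.38, SE 0.578, adjusted p = 0.0223, and -2.61 with adjusted p = 0.000617 without MA-10 replicate 1, and 0.0357 with the replicate block). The STARKO1 levels of Notum rest on few counts, since 3 counts amounted to 0.129 to 0.177 CPM in that line. Csnk1e, a casein kinase that acts on Dishevelled, fell from 29.4 ± 6.86 to 7.53 ± 0.638 CPM (SD, n = 3 each, log2 fold change -1.97, SE 0.222, adjusted p = 0.00641, and 0.0227 with the replicate block). Its relative Csnk1g3 fell as well (log2 fold change -0.69, SE 0.156, adjusted p = 0.0428). Dact2, a Dishevelled-binding protein, rose (log2 fold change 1.17, SE 0.238, adjusted p = 0.0346), as did Chd8, a chromatin remodeler that binds β-catenin (log2 fold change 1.26, SE 0.268, adjusted p = 0.0379). Leaving out each library in turn, Csnk1e passed in 3 of the 6 fits, Notum in 2, and Csnk1g3, Dact2 and Chd8 in 1 each, that without MA-10 replicate 1. With the replicate block the adjusted p by edgeR was 0.116 for Csnk1g3, 0.0797 for Dact2 and 0.0805 for Chd8. Of 29 listed β-catenin targets, 11 were tested, 5 of them among the 40 genes, and Notum was the 1 called, beside 9.04% of all genes, while 4 had an unadjusted p under 0.05, beside 37.6% of all genes. Without MA-10 replicate 1, 5 of these targets were called, 3 higher and 2 lower, and of the other WNT pathway genes 30, 20 higher and 10 lower, where 65.7% of all genes were called.

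All 8 tested Hedgehog genes had estimates above 0, against 47.1% of all tested genes. The co-receptor genes Gas1 and Boc passed, or 25.0% of the 8 against 9.04% of all. Without MA-10 replicate 1, 5 of the 8 (62.5%) were called, where 65.7% of all genes were. Smo, which the filter left out, pointed the other way, with 9, 6 and 3 counts in MA-10 and 0 in each STARKO1 library. The median log2 fold change of the 8 was 0.55, beside 0.36 for the 28 tested WNT genes. The ligand gene and its release factor overlapped between the lines. Dhh, the Hedgehog ligand of the testis, had 20.04, 19.1 and 16.9 CPM across MA-10 replicates 1 to 3, against 20.2, 19.6 and 17.5 CPM across STARKO1 replicates 1 to 3 (log2 fold change 0.031, SE 0.156, adjusted p = 0.894). Its exons share 546 bases with Rhebl1 on the same strand and 1107 with Gm49442 on the opposite strand, both in the table, so its count is uncertain. Disp1, which releases lipid-modified Hedgehog proteins from the cell, had 25.03, 21.8 and 20.3 CPM across MA-10 replicates 1 to 3, against 22.3, 23.9 and 24.3 CPM across STARKO1 replicates 1 to 3 (log2 fold change 0.068, SE 0.154, adjusted p = 0.762).

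Gas1, a membrane-anchored Hedgehog co-receptor (chromosome 13, 60174405 to 60177365, minus strand), had 7, 1 and 0 counts in MA-10 replicates 1 to 3 and 111, 83 and 78 in STARKO1 replicates 1 to 3. The lowest STARKO1 library was far above the highest of MA-10, which was replicate 1. Mean levels were 0.163 ± 0.211 CPM in MA-10 and 4.68 ± 0.267 CPM in STARKO1 (SD, n = 3 each), a 28.8-fold rise that rests on few MA-10 counts (log2 fold change 4.57, SE 0.636, adjusted p = 0.0115). Leaving out 1 library moved the estimate between 4.099 (without MA-10 replicate 3) and 6.59 (without MA-10 replicate 1), and against MA-10 replicate 1 alone the log2 difference was 3.55. Gas1 was called with the replicate block (adjusted p = 0.0357) and without MA-10 replicate 1 (adjusted p = 3.04e-05), 2 or 3, but not without STARKO1 replicate 1, 2 or 3, where it reached 0.0749. Its exons share 589 bases with Gm48488 on the opposite strand. The 250 bases upstream of the RefSeq start of Gas1 (GRCm38.p6, chr13:60177536-60177785, minus strand) are shown because this gene had the largest fold change of the 36. Capitals mark CG, which occurs 10 times here.
Gas1: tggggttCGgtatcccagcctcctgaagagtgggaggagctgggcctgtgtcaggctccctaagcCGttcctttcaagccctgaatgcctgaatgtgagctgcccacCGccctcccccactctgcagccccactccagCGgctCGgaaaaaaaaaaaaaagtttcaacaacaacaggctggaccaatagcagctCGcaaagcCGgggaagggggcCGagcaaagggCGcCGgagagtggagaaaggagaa

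Boc (chromosome 16, 44485049 to 44558897, minus strand), a co-receptor of the immunoglobulin superfamily, had 20.8, 9.11 and 12.4 CPM across MA-10 replicates 1 to 3, against 35.8, 34.8 and 36.7 CPM across STARKO1 replicates 1 to 3. All STARKO1 libraries were above those of MA-10, and Boc rose 2.54-fold in mean level (log2 fold change 1.34, SE 0.301, adjusted p = 0.04299). It passed in 1 of the 6 fits that left out 1 library, that without MA-10 replicate 1 (log2 fold change 1.82, adjusted p = 4.77e-05), had up to 0.181 in the others, and had 0.0685 with the replicate block. The Boc call was also lost with upper quartile scaling (adjusted p = 0.0562 by edgeR), library size alone (0.107) and at least 10 counts in every library (0.0504). Its relative Cdon was at 16.3, 8.33 and 10.7 CPM (MA-10) and 16.2, 16.2 and 16.3 CPM (STARKO1), and MA-10 replicate 1 lay within the STARKO1 range (log2 fold change 0.46, SE 0.258, adjusted p = 0.224, and 0.86 with adjusted p = 0.00145 without MA-10 replicate 1). The ratio of Boc to Cdon per kb was 2.22, 1.896 and 2.02 in the MA-10 libraries and 3.83, 3.73 and 3.89 in those of STARKO1. That of Boc to Ptch1 was 0.629, 0.671 and 0.687 in the MA-10 libraries and 1.05, 1.09 and 1.095 in those of STARKO1. In both ratios, chosen after the values were seen, MA-10 replicate 1 lay on the MA-10 side of the gap.

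Ptch1, the Hedgehog receptor and a target of the pathway, was its most abundant gene by mean level per kb in MA-10 and over both lines. This rank did not hold in MA-10 replicate 2, where Dhh and Disp1 were above Ptch1 per kb, and Boc was above Ptch1 in every STARKO1 library. Ptch1 had 105, 43.3 and 57.6 CPM across MA-10 replicates 1 to 3, against 109, 102 and 107 CPM across STARKO1 replicates 1 to 3. MA-10 replicate 1 lay within the STARKO1 range (log2 fold change 0.62, SE 0.324, adjusted p = 0.197, and 1.16 with adjusted p = 0.000327 without MA-10 replicate 1). Gli1, a transcription factor widely used as a readout of the pathway, had 21, 3 and 10 counts in MA-10 replicates 1 to 3 and 30, 16 and 42 in STARKO1 replicates 1 to 3, and the lines overlapped (log2 fold change 0.92, SE 0.572, adjusted p = 0.267, and 1.498 with adjusted p = 0.0623 without MA-10 replicate 1). Sufu, the inhibitor that binds GLI proteins, had 18.7, 11.2 and 11.2 CPM across MA-10 replicates 1 to 3, against 18.2, 19.8 and 19.4 CPM across STARKO1 replicates 1 to 3. For Sufu too, MA-10 replicate 1 lay within the STARKO1 range (log2 fold change 0.47, SE 0.2396, adjusted p = 0.187, and 0.86 with adjusted p = 0.000516 without MA-10 replicate 1).

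Smo, whose protein carries the Hedgehog signal into the cell, had 9, 6 and 3 counts in MA-10 replicates 1 to 3 and 0, 0 and 0 in STARKO1 replicates 1 to 3. It was too low for the filter. Against a floor of 3 counts per STARKO1 library, its mean level was at least 2.74-fold lower in STARKO1, and with no filter it was called (adjusted p = 0.0416 by edgeR). Smo was low in both lines, with at most 0.5204 CPM in any library.

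**Figure D4:**
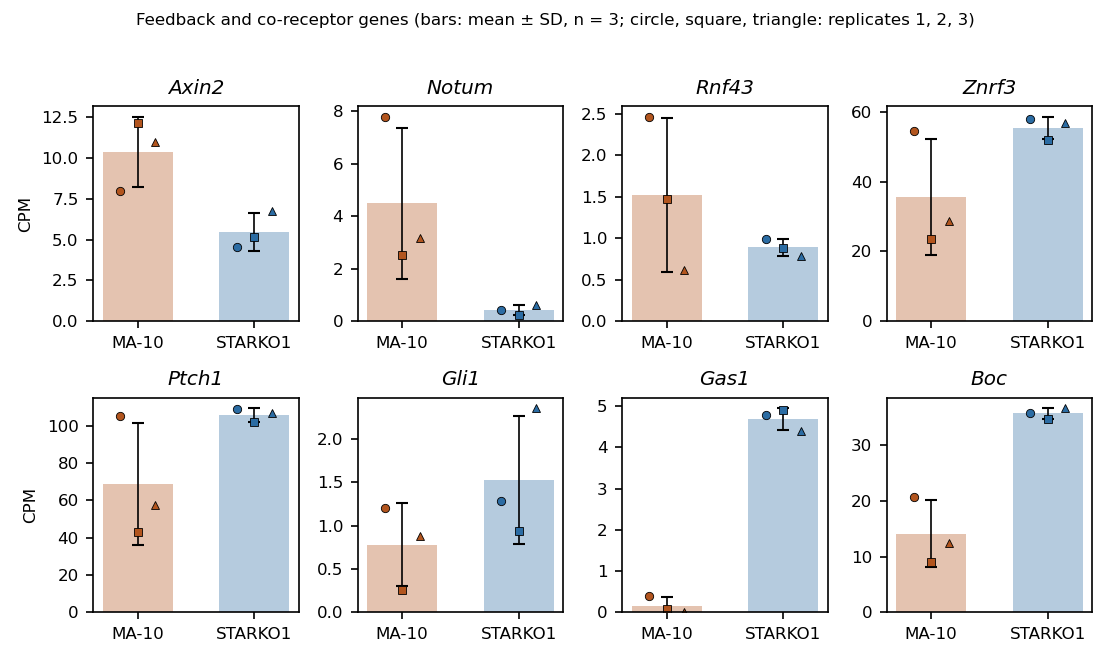
CPM in each library, with the mean and SD of each line, for the feedback genes Axin2, Notum, Rnf43, Znrf3, Ptch1 and Gli1 and the co-receptor genes Gas1 and Boc. Axin2 and Notum are lower and Gas1 and Boc higher in every STARKO1 library, and Notum, Gas1 and Boc passed the test while Axin2, Rnf43, Znrf3, Ptch1 and Gli1 did not.

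Of 51 other Hedgehog pathway genes, 38 were tested and 2 called, or 5.26% against 9.04% of all genes. Evc, a protein of the ciliary base that binds SMO, rose, with 3.74 ± 1.18 CPM in MA-10 and 9.39 ± 1.63 CPM in STARKO1 (SD, n = 3 each) and log2 fold change 1.31, SE 0.277, adjusted p = 0.0372, and 1.698 with adjusted p = 0.000294 without MA-10 replicate 1. Dzip1, a ciliary protein needed for Hedgehog signaling, fell, with 19.7 ± 4.55 CPM in MA-10 and 7.65 ± 0.832 CPM in STARKO1 (SD, n = 3 each) and log2 fold change -1.36, SE 0.225, adjusted p = 0.01998, and -1.15 with adjusted p = 0.00132 without MA-10 replicate 1. With the replicate block their adjusted p were 0.0958 and 0.0699 by edgeR, and they passed in 1 and 2 of the 6 fits without 1 library, that without MA-10 replicate 1 among them. Without MA-10 replicate 1, 27 of these genes were called, 14 higher and 13 lower, where 65.7% of all genes were called. Of 26 listed GLI targets, 9 were tested, 5 of them among the 40 genes. The 2 called were Gas1 and Boc, already described, where 9.04% of all genes were called. The list does not separate genes that the pathway induces from those it represses, so these rises give no direction of pathway output. Ptch1 and Gli1, which the pathway induces, were not called.

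RefSeq promoters, from 250 bases before to 50 after a start, were searched on both strands for letters bound by the pathways' factors, and 26 of the 40 genes matched with 33 promoters. For TCF/LEF factors CTTTGAA or CTTTGAT was sought, which 2 of the 33 held, against 8.65% of all 32851 promoters. For GLI factors GACCACCCA was sought, held by 0 of the 33 and 0.253% of all. For the Leydig cell factor SF-1, TCAAGGTCA or CCAAGGTCA was sought, held by 0 of the 33 and 0.956% of all. No motif of one factor is contained in that of another. The promoters with TCF/LEF letters belong to Disp1 and Wnt5b, which were not called. Among the genes called, Fzd4 and Gas1 held none in their windows, while Fzd2, Boc and Dkk3 had no promoter in this set and were not searched. The stretches of Disp1 and Wnt5b are shown with the motif in capitals, at chr1:183147769-183147807 and chr6:119449431-119449477. Both are on the minus strand of GRCm38.p6, and in Disp1 the motif reads as its reverse complement. These minus-strand genes extend to 183221522 and 119544347, so the starts used lie inside the annotated genes rather than at their outermost ends.
Disp1: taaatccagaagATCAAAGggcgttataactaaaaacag
Wnt5b: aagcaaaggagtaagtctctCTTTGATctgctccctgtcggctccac

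In 30 of the 36 genes (83.3%), MA-10 replicate 1 was nearer to the STARKO1 mean than MA-10 replicates 2 and 3 were, against 72.9% of all tested genes. The exceptions were Fzd2, Fzd4, Fzd5, Rnf43, Wnt5b and Wnt10a. For Lrp6, Apc, Ptch1, Cdon, Sufu, Znrf3, Wnt6 and Fzd1, the STARKO1 mean differed from MA-10 replicate 1 by at most 0.03 on the log2 scale. The differences were -1.97 for Fzd4, -1.52 for Fzd2, -0.91 for Sfrp4 and -0.54 for Axin2. They were 1.204 for Dkk3 and 0.78 for Boc. The lines of the 5 genes called did not overlap, so their directions against MA-10 replicate 1 alone were fixed in advance. This comparison was chosen after the data were seen and has no test.

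**Figure D5:**
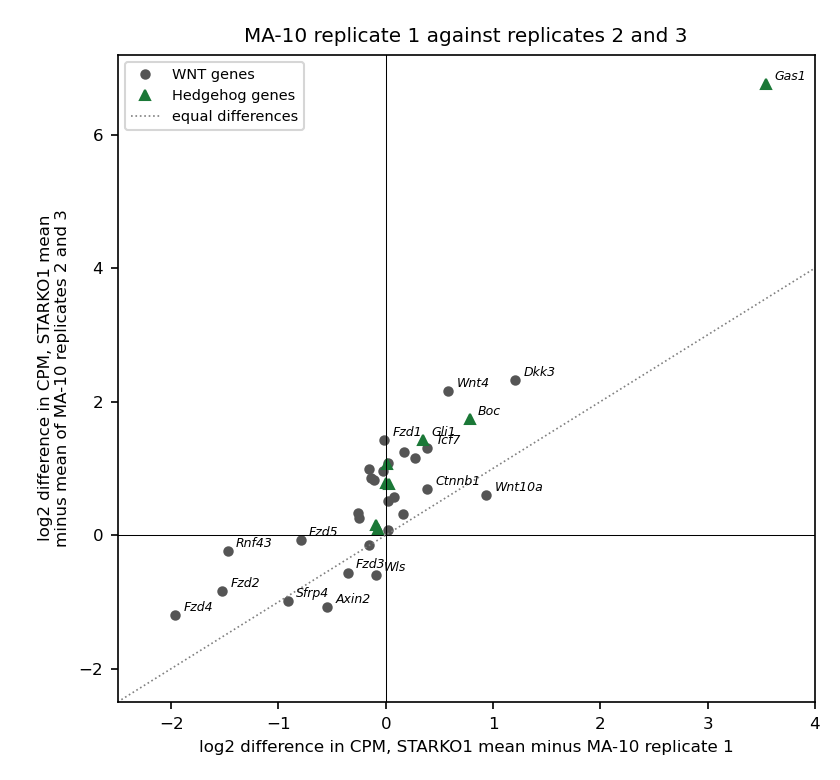
For each of the 36 tested genes, the log2 difference in CPM between the STARKO1 mean and MA-10 replicate 1 (horizontal) and between the STARKO1 mean and the mean of MA-10 replicates 2 and 3 (vertical), so that both axes share the STARKO1 libraries. Gas1, Dkk3 and Boc lie right of 0 and Fzd4 and Fzd2 left of it, while Ptch1, Cdon and Fzd1 stand close to the vertical line at 0.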

How the data were processed

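The authors deposited 1 table of estimated counts per gene, with values that need not be whole and no normalization, for 3 MA-10 and 3 STARKO1 libraries of total RNA. The submitters' processing notes name the aligner STAR 2.6.1d, Partek and the build mm10, and the counting program and its use of strand are not given in the sources used here. Libraries were grouped by the samples' titles. The labels do not say whether they came from separate cultures, and the general statement of independent experiments in the methods does not name the sequencing, so p-values measure only the spread between these libraries, which may be technical. The genes and lists were chosen with earlier results of these data known.

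Estimated counts were rounded (by at most 0.11 for the genes described) and tested with the quasi-likelihood method of edgeR 4.0.16 (R 4.3.3) after filterByExpr and TMM, with Benjamini-Hochberg adjustment over 11939 genes, and genes under 0.05 were called. The SE is the absolute log2 fold change divided by the square root of F. CPM were computed on the TMM-scaled library size. Levels of different genes were compared per kb of exon (GENCODE M21, GRCm38). Gene ends are given 1 base below the deposited stop, which counts from the base after the gene. The named genes were those called, the pathway readout genes, the most abundant gene of each role, and those with no overlap and an unadjusted p under 0.05. Alternatives were DESeq2 1.42.0, upper quartile scaling, library size alone, 2 other filters, other thresholds, a replicate block, gene length offsets and leaving out each library. The scripts were tested on simulated data with known changes. There edgeR recovered 3.81% of 2-fold and 76.9% of 4-fold changes, and 3.90% of its calls were false. DESeq2 recovered 30.5% and 91.2%, and 21.8% of its calls were false. A gene that edgeR did not call may thus still differ by about 2-fold. The simulated counts varied independently from gene to gene, without the differences shared by many genes between the MA-10 libraries. The simulated rates may therefore not hold for these data. Total counts leave little counting error except for the genes with few counts named in the text. Sequences are those of RefSeq promoters (GRCm38.p6). Python 3.11.15 with pandas 2.3.3 and matplotlib 3.10.9 drew the figures.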

Additional observations from a re-analysis of the deposited data

How the results depend on the processing

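The lines of the 5 genes called did not overlap, so their unchanged direction without each library in turn was nearly fixed in advance. The count of calls moved. It was 10 with DESeq2, 3 with upper quartile scaling, 1 with library size alone, 2 with at least 10 counts in every library, 1 with the replicate block, 0 at an adjusted p under 0.01, and between 0 and 26 without 1 library. Over all genes, 1079 calls became 3395 with DESeq2, 330 with library size alone, 695 with at least 10 counts and 234 with the replicate block, and between 89 and 7990 without 1 library. For other WNT pathway genes, 5 calls became 9, 0, 3 and 2 under these settings, and between 0 and 30 without 1 library. For other Hedgehog pathway genes, 2 became 7, 0 and 0 with DESeq2, library size alone and the replicate block, and between 0 and 27 without 1 library. For β-catenin targets, 1 became 3, 0 and 0 with DESeq2, library size alone and at least 10 counts, and between 0 and 5 without 1 library. For GLI targets, 2 became 1, 1, 1 and 0 with upper quartile scaling, library size alone, the replicate block and at least 10 counts, and between 0 and 7 without 1 library. Fits without a library rest on fewer samples, and the cause of the other changes was not tested.

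The median log2 fold change of the 36 genes was 0.77 with library size alone and between 0.27 and 0.74 without 1 library. Signs turned in genes that were not called. With library size alone, Wls had 0.0537 and Wnt5b 0.29, and with gene length offsets Apc had -0.00041. Without 1 library, the lowest and highest estimates were of both signs for Apc (-0.10 and 0.21), Dhh (-0.0368 and 0.18), Fzd5 (-0.53 and 0.0185), Lgr4 (-0.11 and 0.35), Tcf7l2 (-0.0202 and 0.58) and Wnt5b (-0.36 and 0.0394). The replicate numbers did not pair the libraries, since same-numbered libraries deviated from their line's mean with correlations of -0.0165 to 0.0455, against -0.0535 to 0.0382 for other pairs. With the replicate block 1 of the 36 genes was called. Offsets for GC content were not run, since no genome sequence was used here. Few counts limit the values of Gas1, Smo, Wnt4, Gli1, Rnf43, Porcn, Wnt2b, Wnt10b and Notum, and also those of Tcf7, Tcf7l2, Wnt10a and Wnt5b.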
